A study of Mus musculus with 24 samples.

Results

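Withdrawal of serine and glycine was examined in cells that lack Phgdh by label and share their culture with hepatocytes, in 6 of the 24 RNA sequencing libraries of the series. The cells are HY19636, a mouse pancreatic ductal adenocarcinoma line. All 6 libraries carried the Phgdh knockout (KO) and hepatocyte coculture, and only the medium differed: 3 libraries came from medium free of serine and glycine, here called deprived, and 3 from medium with both, here called supplied. Genes with an FPKM (read fragments over gene length in kilobases and library depth) of at least 1 in at least 3 of the 24 libraries were tested, which left 12061 of 54532 genes. For comparison, deprived and supplied KO cells grown alone and deprived and supplied wild-type (WT) cells in coculture were used, with 3 libraries in each group. As its title has it, the series asks about serine that hepatocytes give to pancreatic cancer cells in the liver. The labels do not say whether the KO line is a single clone, which part of Phgdh was edited, how long the cultures lasted or how the cancer cells were parted from the hepatocytes. Replicates carry numbers, but nothing says that they were separate cultures, and the p-values may thus reflect technical spread only.

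Serine can be taken up from outside or made from a glycolytic intermediate by PHGDH, PSAT1 and PSPH, and it is converted to glycine by the SHMT enzymes, which pass its carbon to folate. That carbon is needed for purines and thymidylate, and serine itself is used in protein, sphingolipids, phosphatidylserine and, through cystathionine, cysteine and glutathione. Cells short of an amino acid are known to raise ATF4, a transcription factor that induces transporters, synthetases of amino acids and aminoacyl-tRNA synthetases, whereas sterol synthesis genes answer to SREBP factors and cell cycle genes to E2F and to the MuvB complexes.

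The deprived libraries were less alike than the supplied ones. The 6 libraries held 16708022 to 19013384 reads assigned to genes. Pearson correlations across genes on the log2 scale were 0.9905 to 0.9918 between supplied replicates and 0.9732 to 0.9857 between deprived ones. Chi-square values per degree of freedom were 2.99 to 3.98 between supplied replicates, and 41.07 between deprived replicates 1 and 2, 15.48 between 1 and 3 and 13.82 between 2 and 3. Deprived replicate 2 lay farthest from the supplied libraries and replicate 1 nearest. Other measures moved with this order. Gm23935, a short noncoding transcript, had an FPKM of 19883 in deprived replicate 1, 1374 in replicate 2 and 6105 in replicate 3, against 17545 to 20321 in the supplied libraries. Among 5 groups of genes by length, the shortest had a median log2 difference from the supplied mean of −0.04, −0.12 and −0.10 in deprived replicates 1, 2 and 3, and the longest 0.03, 0.15 and 0.10. Their part in the results below was not tested. The main counts of calls on withdrawal in KO coculture, for all genes and each pathway list, are therefore given with and without deprived replicate 2. Some counts are also given after correction for gene length and GC content, where noted.

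**Figure D1:**
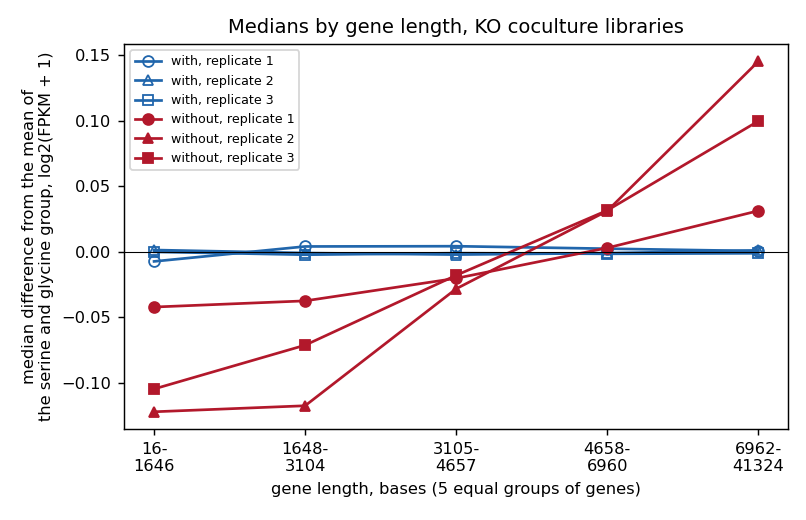
Median difference of each KO coculture library from the mean of the supplied libraries, in log2(FPKM + 1), for 5 groups of genes by length in bases. Filled red symbols are the deprived libraries and open blue symbols the supplied ones. The supplied libraries lie at 0 in every group, whereas deprived replicates 2 and 3 run from about −0.12 and −0.10 among the shortest genes to 0.15 and 0.10 among the longest.

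The cell identity given by the labels was checked against marker lists. All 20 hepatocyte markers, albumin among them, were under an FPKM of 1 in each of the 6 libraries, 14 of them were at 0 throughout, and their summed FPKM was 0.36 to 0.619 in deprived and 0.179 to 0.467 in supplied libraries. Markers of acinar and islet cells summed to 0.08 to 0.699 and 0.211 to 0.362, of macrophages and Kupffer cells to 3.28 to 4.37 and 3.4 to 4.89, of endothelial cells to 1.67 to 2.61 and 2.96 to 3.64, and of stellate cells and fibroblasts to 1.91 to 2.47 and 2.47 to 2.58. The 2 endothelial markers that passed the filter were both called lower. Cholangiocyte markers, which ductal cancer cells share in part, summed to 2020 to 2137 in deprived and 1549 to 1610 in supplied libraries, with 5 of 6 tested members higher and 1 lower. The 12 ductal adenocarcinoma markers summed to 3955 to 4245 and 3584 to 3613, and of 10 tested 7 were higher and 2 lower. The keratin genes Krt8, Krt18 and Krt19 had the highest FPKM, while Cldn4 was at 0 in all 6. Krt7 was lower, at 46.06, 45.08 and 46.11 in deprived against 65.15, 63.61 and 66.51 in supplied libraries. Muc1 was lower as well, at 7.56, 6.76 and 7.57 against 13.2, 13.4 and 13.6. Epcam was low throughout, at 0.48, 0.81 and 0.47 against 1.02, 1.30 and 0.71. Pdx1 and Sox9 are transcription factors of pancreatic and ductal identity. Pdx1 had an FPKM of 4.05, 4.42 and 3.65 in the deprived and 0.736, 1.05 and 1.03 in the supplied libraries, replicates 1 to 3 in each case (log2 change 1.38 ± 0.10, limma adjusted p = 1.17e-08). Sox9 stood at 11.2, 9.26 and 10.01 against 5.47, 5.35 and 5.29 (0.81, adjusted p = 5.6e-07). In bulk RNA, fewer cells of a type and less RNA per cell cannot be told apart.

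Phgdh transcript was still abundant in the KO cocultures. On GRCm38, Phgdh is listed as ENSMUSG00000053398, chromosome 3, 98313170 to 98339990, and its FPKM was 817, 606 and 726 in deprived and 885, 869 and 868 in supplied libraries. The groups did not overlap, the lowest value was deprived replicate 2, and the change of −0.30 ± 0.12 on the log2(FPKM + 1) scale (± standard error throughout, and a lone signed value beside a gene is always this log2 change) did not pass the test (limma adjusted p = 0.0594). Without deprived replicate 2 it was −0.18 (adjusted p = 0.315), and without deprived replicate 1 it passed (−0.40, adjusted p = 0.0166). WT cocultures had 1405, 1278 and 1249 without and 1331, 1236 and 1333 with serine and glycine, above all 6 KO libraries. A transcript total does not show whether the enzyme was lost, since RNA of an edited gene can still be sequenced.

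Withdrawal changed 3607 of the 12061 genes (29.9%) at an adjusted p under 0.05, with 1865 higher (15.5%) and 1742 lower (14.4%) in deprived cells. Most changes were small: the median absolute log2 change over all genes was 0.188, and 70 genes rose (0.58%) and 53 fell (0.439%) by at least 1. Without deprived replicate 2 the calls numbered 1221 higher and 931 lower, of which 1167 and 877 were also called with it. Without supplied replicate 1 the lower calls numbered 1153. After correction for gene length and GC content there were 1856 higher and 1959 lower calls, 1450 and 1341 of them shared. Called rises made up 6.26% of the shortest of these 5 length groups and 24.7% of the longest, and called falls 12.5% and 7.26%.

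The rise of Ivl was the largest among the genes named by rule. Ivl (ENSMUSG00000049128, chromosome 3, 92570902 to 92573735) encodes involucrin, a precursor of the cornified envelope. Its FPKM was 21.8, 27.8 and 24.6 in the deprived and 3.18, 3.83 and 3.24 in the supplied libraries, a log2 change of 2.54 ± 0.11 (limma adjusted p = 8.19e-12). Mmp13 (ENSMUSG00000050578, chromosome 9, 7272514 to 7283331), a collagenase, was at 57.9, 72.7 and 65.4 against 15.02, 15.2 and 13.6 (2.08 ± 0.12, adjusted p = 8.78e-10). Il1rn (ENSMUSG00000026981, chromosome 2, 24336853 to 24351494) encodes the secreted antagonist of the interleukin 1 receptor and was at 24.7, 31.5 and 25.4 against 5.74, 5.73 and 5.73 (2.06 ± 0.08, adjusted p = 1.19e-12). In all of these genes every deprived library lay above every supplied one, with the supplied values close together. Cldn2 (ENSMUSG00000047230, chromosome X, 139800828 to 139811386), a claudin that forms cation pores in tight junctions, rose from 0.993, 1.35 and 1.89 to 7.46, 7.89 and 8.11 (1.89 ± 0.09, adjusted p = 8.84e-11). The hyaluronan-binding serum protein gene Itih2 rose from 1.38, 1.53 and 1.01 to 5.85, 7.16 and 6.97 (1.73 ± 0.11, adjusted p = 2.01e-09).

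The other 7 of the 12 leading rises were Klra4 (2.07), of the Ly49 receptor family, Gimd1 (1.79), the prolactin gene Prl (1.64), the aldo-keto reductase gene Akr1b7 (1.59), Dynap (1.5), Tcim (1.37) and Vsig1 (1.37), an immunoglobulin family gene of the stomach epithelium. Prl was at 21.6, 20.7 and 20.7 in deprived and 6.42, 5.68 and 6.13 in supplied libraries, and Akr1b7 at 13.8, 17.2 and 12.4 and 3.86, 3.502 and 5.08. Klra4, Prl and Akr1b7 belong to families of related genes. Reads may be split between such genes, and the gene assignment was not checked. All 12 rises kept their call in each of 17 alternative settings, including without deprived replicate 2 and with replicate 1 as the sole deprived library. Without replicate 2, the log2 change was 2.46 for Ivl, 2.0 for Mmp13, 1.95 for Il1rn and 1.88 for Cldn2.

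**Figure D2:**
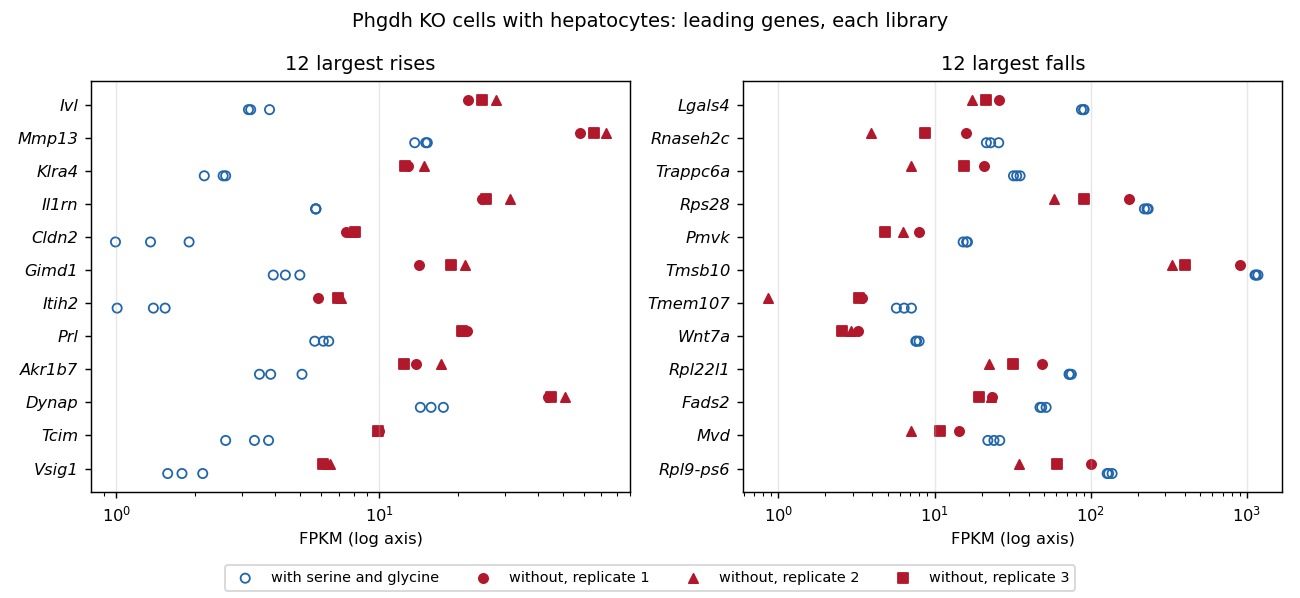
FPKM in each KO coculture library, on a log axis, for the 12 largest rises (left) and the 12 largest falls (right). Open blue circles are the 3 supplied libraries and filled red symbols the deprived ones, with a circle, triangle and square for replicates 1, 2 and 3. The deprived replicates lie close together for the rises, while for falls such as Rnaseh2c, Rps28 and Tmsb10 replicate 2 lies lowest and replicate 1 nearest the supplied libraries.

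The falls were led by Lgals4 (ENSMUSG00000053964, chromosome 7, 28833854 to 28841708), which encodes galectin 4, a lectin of gut epithelium. Its FPKM was 25.7, 17.4 and 21.3 in deprived against 87.2, 90.03 and 90.5 in supplied libraries (−2.02 ± 0.14, limma adjusted p = 1.03e-08). Pmvk, a kinase of the mevalonate pathway, was at 7.93, 6.32 and 4.83 against 16.2, 16.03 and 15.2 (−1.22 ± 0.11, adjusted p = 3.14e-07). Wnt7a, a secreted Wnt ligand, was at 3.23, 2.93 and 2.55 against 7.67, 7.96 and 7.58 (−1.17 ± 0.07, adjusted p = 1.75e-09). The desaturase gene Fads2, which acts on polyunsaturated fatty acids, was at 23.2, 22.99 and 19.3 against 47.3, 51.8 and 48.5 (−1.14 ± 0.09, adjusted p = 2.4e-08). These 4 genes kept their call in every alternative setting. The other 8 leading falls lost it in at least 1.

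Those 8 were the ribonuclease H2 subunit gene Rnaseh2c (−1.39), the vesicle tethering gene Trappc6a (−1.28), the ribosomal protein genes Rps28 (−1.22) and Rpl22l1 (−1.15), the actin monomer binding gene Tmsb10 (−1.21), the ciliary gene Tmem107 (−1.17), Mvd (−1.14), which follows Pmvk in the mevalonate pathway, and Rpl9-ps6 (−1.12), deposited as protein-coding although its name marks a pseudogene. Tmsb10 shows the spread behind them: its FPKM was 900.2, 333 and 404 in deprived and 1177, 1127 and 1145 in supplied libraries. Deprived replicate 1 was thus far nearer the supplied values than replicates 2 and 3. Without deprived replicate 2 Trappc6a (adjusted p = 0.0757), Rps28 (0.145), Tmsb10 (0.0643) and Rpl9-ps6 (0.0698) were not called, while Rnaseh2c (0.0491), Tmem107 (0.0102), Rpl22l1 (0.012) and Mvd (0.00363) were. Rnaseh2c overlaps Kat5 and Rps28 overlaps Kank3 on the opposite strand, and no source used here says if reads were counted by strand. The same limit holds for Shmt1, Cebpb, Slc6a9, Tpi1, Ormdl2, Syvn1, Hspe1, Erbb2, Col18a1, Npc1, Adm and Rpl28, which are named below.

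For gene groups, 30 lists of functionally related genes were followed. The plot of list members shows the share of each list called in either direction beside that of all genes. All genes had 15.5% higher and 14.4% lower, and no list was tested against them.

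**Figure D3:**
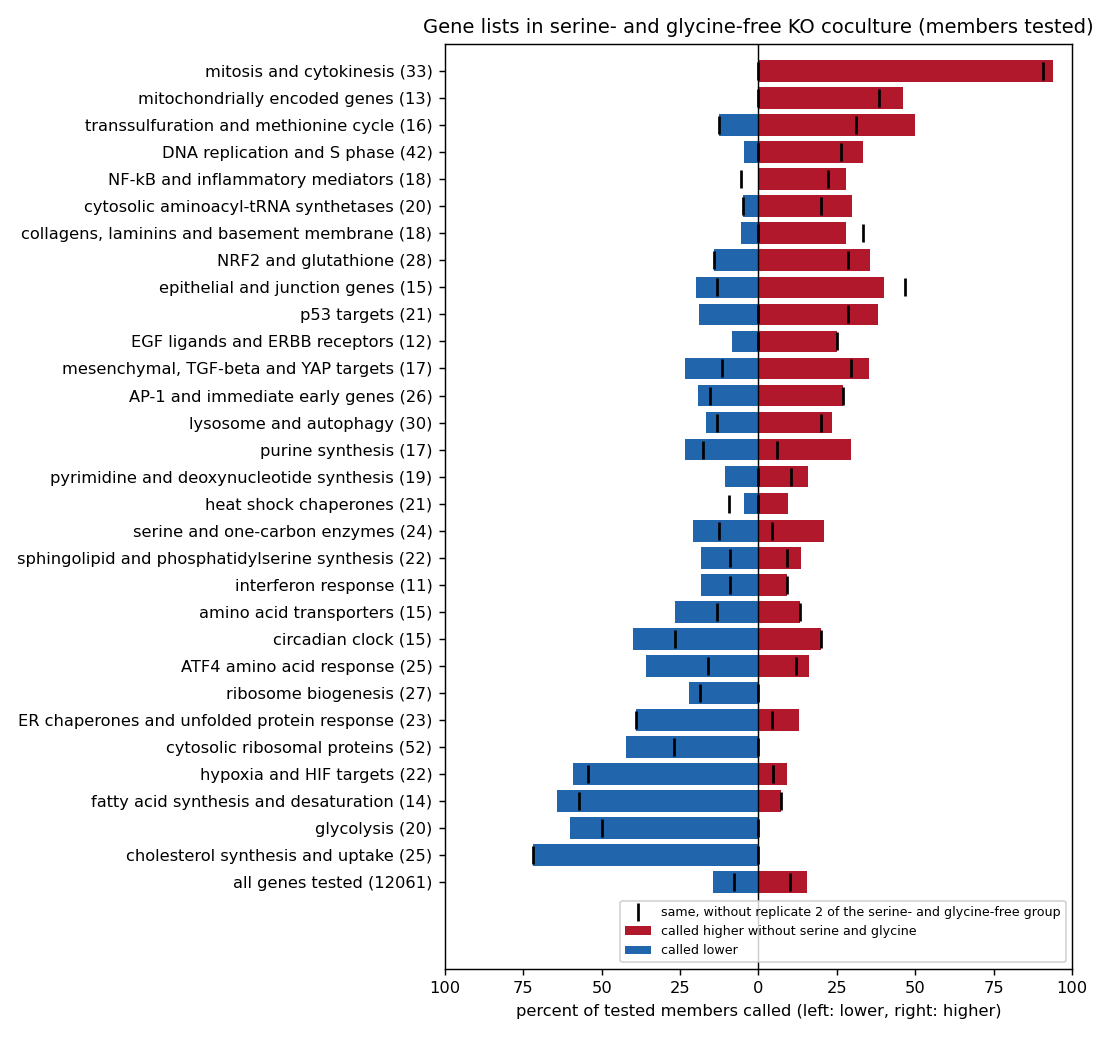
Percent of the tested members of each list called higher (red, to the right) or lower (blue, to the left) in deprived KO cocultures, with the number of tested members in parentheses and all 12061 genes in the bottom row. Black ticks give the same shares without deprived replicate 2. The bars reach 31 of 33 for mitosis and 18 of 25 for cholesterol synthesis and uptake, and both ticks stay near their bars.

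Mitotic genes were higher in deprived cells almost throughout. Of 35 listed genes 33 passed the filter, 31 of these rose and 0 fell, with a median log2 change of 0.74 against −0.0007 over all genes tested. Ccnb1 (ENSMUSG00000041431, chromosome 13, 100778650 to 100786570), which encodes cyclin B1, the partner of CDK1 at entry into mitosis, had an FPKM of 3.32, 3.18 and 3.54 in deprived and 0.594, 0.308 and 0.686 in supplied libraries (1.51 ± 0.11, limma adjusted p = 1.16e-08). Kif11, the kinesin that separates spindle poles, stood at 2.35, 3.33 and 2.77 against 0.507, 0.426 and 0.508 (1.36 ± 0.12, adjusted p = 1.26e-07). Tpx2, an activator of Aurora A kinase, was at 5.71, 7.505 and 6.76 against 2.21, 2.21 and 1.87 (1.30 ± 0.14, adjusted p = 1.47e-06). No deprived library overlapped a supplied one in these genes. Ect2, an exchange factor needed for cytokinesis, was at 6.95, 9.26 and 9.41 against 2.70, 2.90 and 3.15 (1.27 ± 0.12, adjusted p = 5.21e-07). The 2 members not called were Foxm1 (0.18) and Bora (0.08). Levels were low, with Ccnb1 and Kif11 under 1 in every supplied library, so the log2(FPKM + 1) scale understates these changes. Of the 12 members that reach an FPKM of 5 in at least 3 of the 24 libraries 12 were called. A gene can pass that filter through deprived libraries alone, as Tpx2 and Ect2 could, so this count is no check on low levels. Without deprived replicate 2, 30 of 33 were called, and with replicate 1 as the sole deprived library 25.

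Promoter letters were counted for the mitotic, S phase and sterol lists. RefSeq promoters (GRCm38.p6, from 250 bases before to 50 after the start) were found for 25 of the 33 mitotic, 33 of the 42 S phase and 17 of the 25 sterol genes, and for 8176 tested protein-coding genes in all. Both strands were searched for CCAAT, for TTTGAA or TTTAAA, the letters of the cell cycle homology region (CHR) read by MuvB complexes, and for TTTCCCGC or TTTGGCGC, letters of E2F sites. The CHR letters occurred in 84% of mitotic promoters (21 of 25), 18.2% of S phase and 17.6% of sterol promoters, and in 18.2% of all promoters. E2F letters occurred in 0 of 25 mitotic and 12 of 33 S phase promoters (36.4%), against 3.4% of all. CCAAT occurred in 72% of mitotic, 60.6% of S phase and 88.2% of sterol promoters, against 39.3% of all. A few promoters are shown, 2 of mitotic genes, 1 of an S phase gene and 1 of a sterol gene, since the text describes these lists as groups. Capitals mark CCAAT, CHR and E2F letters on either strand, and the bases run 5′ to 3′ on the strand of the gene. Ccnb1 lies at chr13:100786437-100786736, minus strand, Kif11 at chr19:37376132-37376431, plus strand, Cdc6 at chr11:98907901-98908200, plus strand, and Mvd at chr8:122443373-122443672, minus strand.
Ccnb1: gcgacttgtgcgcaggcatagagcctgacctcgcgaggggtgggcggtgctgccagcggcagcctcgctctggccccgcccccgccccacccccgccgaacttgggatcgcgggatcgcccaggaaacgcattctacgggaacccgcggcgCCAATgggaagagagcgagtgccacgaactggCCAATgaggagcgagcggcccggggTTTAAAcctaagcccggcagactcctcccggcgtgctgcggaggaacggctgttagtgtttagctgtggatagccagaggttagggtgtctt
Kif11: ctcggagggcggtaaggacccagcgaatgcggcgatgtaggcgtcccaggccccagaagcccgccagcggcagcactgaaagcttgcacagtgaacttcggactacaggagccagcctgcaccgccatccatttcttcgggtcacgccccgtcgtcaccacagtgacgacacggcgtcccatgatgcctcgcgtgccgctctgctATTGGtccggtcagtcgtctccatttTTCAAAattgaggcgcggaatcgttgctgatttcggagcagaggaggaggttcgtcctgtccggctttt
Cdc6: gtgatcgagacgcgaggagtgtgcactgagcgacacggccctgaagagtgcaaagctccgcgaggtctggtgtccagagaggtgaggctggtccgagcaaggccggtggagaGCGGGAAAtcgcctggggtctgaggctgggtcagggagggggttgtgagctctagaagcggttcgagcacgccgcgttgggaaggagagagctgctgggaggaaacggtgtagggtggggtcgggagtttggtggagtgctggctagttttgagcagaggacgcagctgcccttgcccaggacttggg
Mvd: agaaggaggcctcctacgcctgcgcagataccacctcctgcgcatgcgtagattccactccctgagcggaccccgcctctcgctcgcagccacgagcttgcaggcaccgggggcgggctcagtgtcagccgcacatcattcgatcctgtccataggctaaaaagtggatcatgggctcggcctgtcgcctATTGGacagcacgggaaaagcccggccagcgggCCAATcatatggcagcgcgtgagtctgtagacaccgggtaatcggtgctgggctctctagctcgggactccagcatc
Ccnb1 has 2 CCAAT and 1 CHR match, Kif11 has 1 of each, Cdc6 has 1 E2F match and 0 of the others, and Mvd has 2 CCAAT matches. A match is a description of letters and not evidence of binding, and the letters were not compared with any measure of a factor. The sterol regulatory element letters TCACNCCAC were found in 1 of 17 sterol promoters (5.88%) and in 1% of all.

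S phase genes moved less evenly. Of 43 listed genes 42 passed the filter, 14 rose and 2 fell, with a median of 0.12, and 11 rose and 0 fell without deprived replicate 2. Those named here act in loading and firing of replication origins. Cdc6, which loads the MCM helicase, was at 0.914, 1.20 and 1.44 in deprived and 0.105, 0.238 and 0.160 in supplied libraries (0.90 ± 0.09, limma adjusted p = 1.05e-06). The helicase subunit genes Mcm5 (3.69, 3.34 and 3.27 against 1.67, 1.94 and 1.42, 0.73) and Mcm3 (9.70, 9.91 and 9.29 against 6.09, 5.86 and 5.36, 0.65) and the initiation factor Mcm10 (0.56) rose as well. Other subunits of the same helicase did not all follow: Mcm2 (0.35) and Mcm4 (0.47) rose, and Mcm6 (0.18) and Mcm7 (−0.05) did not pass the test, a comparison made after their values were seen. Among genes of pyrimidine and deoxynucleotide synthesis 3 of 19 rose and 2 fell, near the shares of all genes, and 2 rose and 0 fell without deprived replicate 2. The ribonucleotide reductase gene Rrm2 was at 5.32, 6.01 and 6.35 against 2.65, 2.79 and 2.41 (0.93 ± 0.12, adjusted p = 1.67e-05), Cmpk1, a pyrimidine nucleotide kinase, was at a log2 change of 0.39, Cad, which starts pyrimidine synthesis, at a log2 change of −0.34, and the salvage kinase Dck at a log2 change of −0.24. Of 17 purine synthesis genes 5 rose and 4 fell, 1 and 3 without deprived replicate 2. The salvage gene Hprt (0.52) and Gmps (0.42) rose and Impdh1 (−0.62) and Guk1 (−0.34) fell.

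Genes of cholesterol synthesis and uptake fell. All 25 listed genes passed the filter, 18 fell and 0 rose, with a median of −0.50, and the count was 18 again without deprived replicate 2 and 11 with replicate 1 as the sole deprived library. Besides Pmvk, the mevalonate pathway gene Mvd was at 14.2, 7.11 and 10.8 in deprived and 21.9, 23.99 and 26.1 in supplied libraries (−1.14 ± 0.20, limma adjusted p = 0.000417). The mevalonate kinase gene Mvk was at 4.84, 4.27 and 4.22 against 8.16, 7.40 and 8.24 (−0.71 ± 0.13, adjusted p = 0.000499). In all 3 genes the groups were apart. Hmgcs1 (−0.22) and Msmo1 (0.13), also of this pathway, did not pass, members named after their values were seen. Fatty acid genes were mostly lower as well. Of 14 genes tested from 18 listed, 9 fell and 1 rose, with a median of −0.29, and 8 fell and 1 rose without deprived replicate 2. Scd2, a desaturase that makes oleate, was at 428, 365 and 410.1 against 678, 672 and 695 (−0.77 ± 0.07, adjusted p = 1.28e-07) and Fads1 at 31.5, 31.5 and 32.3 against 49.1, 51.00 and 46.3 (−0.60 ± 0.04, adjusted p = 1.3e-08). The rise was in Acsl4, which activates arachidonate for use in phospholipids (58.5, 70.2 and 65.5 against 43.4, 42.04 and 39.9, 0.62 ± 0.11, adjusted p = 0.00029).

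Glycolytic and hypoxia-responsive genes were also lower. Of 20 tested glycolysis genes 12 fell and 0 rose (median −0.27), with 10 falls without deprived replicate 2 and 4 with replicate 1 alone. Eno1, the enolase gene, had an FPKM of 344, 300.3 and 349 in deprived and 486, 489 and 487 in supplied libraries (−0.56 ± 0.06, limma adjusted p = 3.21e-06). Pgk1, whose product makes 3-phosphoglycerate, was at 1049.5, 929 and 955 against 1331, 1327 and 1332 (−0.45 ± 0.05, adjusted p = 3.75e-06). The lactate exporter gene Slc16a3 was at 9.46, 4.57 and 6.89 against 13.2, 13.00 and 12.2 (−0.84 ± 0.19, adjusted p = 0.00256), with replicate 2 lowest, and Tpi1 changed by −0.45. Gapdh, chosen after its values were seen, had no called change (0.95 ± 1.26, adjusted p = 0.594): its FPKM was 158, 138 and 70.6 in deprived and 74.2, 23.97 and 115 in supplied libraries, a spread within groups unlike that of the other glycolytic genes. Of 22 hypoxia and HIF target genes 13 fell and 2 rose (median −0.24), and 12 fell and 1 rose without deprived replicate 2. The vasodilator peptide gene Adm was at 10.1, 11.8 and 12.3 against 24.1, 21.3 and 23.8 (−0.96 ± 0.11, adjusted p = 2.06e-06), Selenbp1 at a log2 change of −0.90, Ddit4, an inhibitor of mTORC1, at a log2 change of −0.89 and the mitochondrial gene Higd1a at a log2 change of −0.60. The call of Ddit4 was lost without deprived replicate 2 (adjusted p = 0.171).

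Enzymes of serine and one-carbon metabolism changed little and in both directions. Of 25 listed genes 24 passed the filter, 5 rose and 5 fell (median 0.04), near the shares of all genes, and 1 and 3 were called without deprived replicate 2. Psat1, the aminotransferase of serine synthesis, was at 163, 183 and 169.6 in deprived and 175, 179 and 183 in supplied libraries, and the groups overlapped (−0.06 ± 0.05, limma adjusted p = 0.442). Psph, the last step, was at 37.3, 36.1 and 37.98 and 36.2, 37.2 and 36.1, again with overlap (0.02 ± 0.06, adjusted p = 0.794), and it shares sequence on the opposite strand with an annotated transcript of Cct6a. Mitochondrial Shmt2 was at 106, 91.9 and 106 against 123, 122 and 123 (−0.28 ± 0.08, adjusted p = 0.00995, and 0.0706 without deprived replicate 2). Cytosolic Shmt1 was at 3.23, 3.69 and 3.84 against 3.04, 2.46 and 2.67 (0.30 ± 0.08, adjusted p = 0.00653). The mitochondrial folate gene Mthfd2 changed by −0.11 ± 0.04 (adjusted p = 0.0481), a call lost in 12 of 17 alternative settings. Amt, of the glycine cleavage system (−0.55), fell, and Sfxn1, a mitochondrial serine carrier, rose (0.31).

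Of 16 methionine cycle and transsulfuration genes tested from 21 listed, 8 rose and 2 fell (median 0.13), 5 and 2 without deprived replicate 2, and 7 and 5 after correction for gene length and GC content. Cth, which releases cysteine from cystathionine, was at 111, 107 and 113 in deprived and 75.6, 75.1 and 77.8 in supplied libraries with no overlap (0.53 ± 0.05, limma adjusted p = 1.9e-07), and it kept its call in every alternative. The methionine salvage genes Apip (13.6, 16.4 and 13.01 against 7.76, 9.46 and 9.46, 0.63) and Mtap (22.8, 27.3 and 26.2 against 16.99, 18.4 and 17.03, 0.51) rose, and Mri1 of the same route fell (9.27, 7.89 and 8.16 against 12.4, 13.7 and 13.4, −0.59). Genes for glutathione and its supply were among the NRF2 targets that rose. In that list 10 of the 28 tested genes were higher and 4 lower, at a median of 0.12, and 8 and 4 without deprived replicate 2. The cystine importer gene Slc7a11 was at 32.6, 39.01 and 37.8 against 19.3, 18.8 and 18.5 (0.91 ± 0.09, adjusted p = 5.43e-07). Gclc, the catalytic subunit of the first glutathione synthesis step, was at 35.8, 43.01 and 40.8 against 23.2, 24.8 and 26.8 (0.66 ± 0.09, adjusted p = 1.45e-05), glutathione reductase Gsr at a log2 change of 0.52, and the transferase gene Gsta4 at a log2 change of 0.56.

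ATF4 and its targets did not rise as a list. Of 25 tested genes 4 rose and 9 fell (median −0.03), and 3 and 4 were called without deprived replicate 2. Atf4 transcript was at 263, 138 and 197 in deprived and 328, 324 and 324 in supplied libraries, lower in all 3 deprived libraries (−0.75 ± 0.20, limma adjusted p = 0.00807), with an adjusted p of 0.0662 without deprived replicate 2. ATF4 is known to be controlled at translation, which transcript levels do not show. The asparagine synthetase gene Asns, a target, was at 150.5, 175 and 164 against 126, 128 and 124 (0.37 ± 0.08, adjusted p = 0.00159). The proline synthesis gene Pycr1 was at 13.9, 13.7 and 13.7 against 24.8, 24.1 and 25.6 (−0.81 ± 0.07, adjusted p = 1.55e-07), and Cebpb at 115, 41.5 and 73.7 against 154, 149 and 144 (−1.06 ± 0.36, adjusted p = 0.0335), whose call was lost without deprived replicate 2 (0.212). Among 15 tested amino acid transporters, 2 rose, Slc7a11 among them, and 4 fell (2 without deprived replicate 2). The neutral amino acid carrier Slc1a5 was at 21.3, 14.97 and 18.7 against 31.4, 31.9 and 31.3 (−0.77 ± 0.15, adjusted p = 0.000765) and Slc3a2, the heavy chain shared by several exchangers, at 309, 264 and 296 against 454, 454 and 457 (−0.65 ± 0.08, adjusted p = 9.36e-06). The glycine transporter gene Slc6a9 changed by −0.20, a call lost without replicate 2. Of 20 cytosolic aminoacyl-tRNA synthetase genes 6 rose and 1 fell (median 0.07), 4 and 1 without deprived replicate 2. They were led by Lars (0.51), Nars (0.36), Dars (0.28) and Rars (0.24).

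Several secreted factors and immediate early genes were higher. Of 12 tested EGF ligands and receptors 3 rose and 1 fell (3 and 0 without deprived replicate 2), and the rises were in ligands of EGFR. Btc, betacellulin, was at 16.1, 24.2 and 22.1 in deprived and 8.91, 8.55 and 8.76 in supplied libraries (1.14 ± 0.12, limma adjusted p = 1.4e-06), Areg, amphiregulin, at 157, 249.6 and 204 against 103, 106 and 109.9 (0.91 ± 0.16, adjusted p = 0.000269) and Ereg, epiregulin, at 13.4, 16.6 and 14.4 against 6.96, 7.36 and 7.86 (0.91 ± 0.13, adjusted p = 3.67e-05). All deprived libraries exceeded all supplied ones in the 3 ligands, and the receptor gene Erbb2 changed by −0.26. Of 26 AP-1 and immediate early genes 7 rose and 5 fell (7 and 4 without deprived replicate 2), although the median was −0.03. Fos was at 175, 149 and 162 against 94.4, 95.6 and 100.7 (0.73 ± 0.07, adjusted p = 3.57e-07), Fosb at a log2 change of 0.71 and Klf2 at a log2 change of 0.59, while Fosl1 was at a log2 change of −0.58. Of 18 NF-kB and inflammatory genes 5 rose and 0 fell, 4 and 1 without deprived replicate 2, although the median was −0.06. The alarmin gene Il33 was at 2.27, 3.32 and 3.0 against 0.762, 1.05 and 0.810 (1.04 ± 0.12, adjusted p = 5.49e-06), Nfkbiz at a log2 change of 0.73, Csf2 at a log2 change of 0.71 and Nfkb1 at a log2 change of 0.52.

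Genes of cell type and matrix were mixed. Of 15 tested epithelial and junction genes 6 rose and 3 fell (median 0.19), and 7 and 2 without deprived replicate 2. The cadherin gene Cdh17 was at 206, 243 and 230.1 in deprived and 140.0, 139.5 and 138 in supplied libraries (0.70 ± 0.08, limma adjusted p = 2.49e-06), and the mucin gene Muc1 at 7.56, 6.76 and 7.57 against 13.2, 13.4 and 13.6 (−0.80 ± 0.06, adjusted p = 1.3e-08). Krt7 changed by −0.50 and the desmosomal gene Pkp3 by −0.51, the last a call lost without deprived replicate 2. Of 17 mesenchymal, TGF-beta and YAP genes 6 rose and 4 fell (5 and 2 without replicate 2), with Ctgf at 13.5, 13.1 and 13.8 against 7.24, 8.16 and 8.64 (0.69 ± 0.07, adjusted p = 5.6e-07), Ltbp1 at a log2 change of 0.51, the receptor kinase Axl at a log2 change of −0.56 and Ankrd1 at a log2 change of −0.41. Of 18 collagen, laminin and basement membrane genes 5 rose and 1 fell (6 and 0 without replicate 2, 12 and 1 after correction for gene length and GC content), led by Col18a1 (0.62), Fbln1 (0.59), Col5a1 (−0.40) and Nid1 (0.27).

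Of 52 cytosolic ribosomal protein genes 22 fell, 0 rose and 30 did not pass the test (median −0.26). That number was 14 without deprived replicate 2, 13 without deprived replicate 3, 12 without supplied replicate 1, 8 with deprived replicate 1 as the sole deprived library, and 10 with 2 rises after quantile normalization. Rps15 shows the order: its FPKM was 1067, 622 and 772 in deprived and 1476, 1432 and 1434 in supplied libraries (−0.85 ± 0.22, limma adjusted p = 0.00711), lowest in replicate 2. Rpl28 (−0.67), Rps16 (−0.58) and Rpl38 (−0.54) were the next largest calls. Ribosomal protein genes have many processed copies, and reads may be shared with them. Of 27 ribosome biogenesis genes 6 fell and 0 rose (5 and 0 without deprived replicate 2), with Polr1b (−0.43), Nop2 (−0.36), Pes1 (−0.30) and Rrs1 (−0.28) in front. Of the 13 genes that mitochondrial DNA encodes for respiratory complexes and ATP synthase, 6 rose, 0 fell and 7 did not pass (median 0.55), and 5 rose without deprived replicate 2. The cytochrome b gene mt-Cytb was at 3242, 2771 and 3346 against 1480.4, 1505 and 1508 (1.05 ± 0.08, adjusted p = 1.3e-08), and the complex I genes mt-Nd4 at 1318, 1265 and 1518 against 754, 759 and 802 (0.82 ± 0.10, adjusted p = 4.69e-06) and mt-Nd2 at 1529, 2025 and 2188 against 1009, 1053 and 1078 (0.85 ± 0.12, adjusted p = 5.34e-05). Replicate 1 shared these rises, and mt-Nd4l (1.24) overlaps mt-Nd4. Reads of the mitochondrial genome made up 2.27 to 2.76% of deprived and 1.81 to 1.88% of supplied libraries.

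The remaining lists had calls in both directions. Among 15 clock genes 3 rose and 6 fell, 3 and 4 without deprived replicate 2. Nr1d1, a repressor of Arntl, was at 13.7, 13.9 and 13.01 in deprived and 6.36, 5.64 and 6.19 in supplied libraries (1.04 ± 0.10, limma adjusted p = 6.48e-07), and Clock at a log2 change of 0.56. Cry1 was at 7.39, 7.07 and 6.94 against 11.8, 12.6 and 11.8 (−0.68 ± 0.05, adjusted p = 1.4e-08), and Ciart at a log2 change of −0.54. Part of Nr1d1 overlaps Thra on the opposite strand. Of 21 p53 targets 8 rose and 4 fell, 6 and 0 without deprived replicate 2, 5 and 6 after correction for gene length and GC content, and Bax (−0.70), Cdkn1a (−0.44), Gtse1 (0.43) and Sesn1 (−0.36) had the largest called changes. Of 23 endoplasmic reticulum chaperone and unfolded protein response genes 3 rose and 9 fell (1 and 9 without replicate 2, 5 and 5 after quantile normalization), with Sdf2l1 at a log2 change of −0.67, Syvn1 at a log2 change of −0.42, P4hb at a log2 change of −0.30 and Edem1 at a log2 change of −0.23. Of 21 heat shock chaperones 2 rose, Chordc1 (0.46) and Hspe1 (0.24), and 1 fell, Hspa8 (−0.28), both below the shares of all genes, and 0 rose and 2 fell without replicate 2. Of 30 lysosome and autophagy genes 7 rose and 5 fell (6 and 4 without replicate 2), with rises in the lysosomal lipase gene Lipa (25.5, 29.6 and 25.8 against 16.1, 16.4 and 15.8, 0.71), the cholesterol exporter gene Npc1 (0.52), Lamp2 (0.47) and Atp6v1h (0.40). Of 22 sphingolipid and phosphatidylserine genes 3 rose and 4 fell (2 and 2 without replicate 2), near the shares of all genes, with Ormdl2 at a log2 change of −0.51, Cers5 at a log2 change of −0.35, Asah1 at a log2 change of 0.41 and Asah2 at a log2 change of 0.40. Of 11 tested interferon response genes 1 rose, Oasl1 (0.40), and 2 fell, H2-D1 (−0.47) and H2-K1 (−0.44), and 1 rose and 1 fell without replicate 2. Without deprived replicate 2 the calls of Asah2, Bax, Cad, Cdkn1a, Chordc1, Col5a1, Dars, Dck, Epop, Erbb2, Gmps, H2-D1, Hspe1, Mthfd2, Rars, Rpl28, Rps15, Rps16, Rrs1, Sesn1, Sfxn1 and Syvn1 were lost as well. After correction for gene length and GC content, Shmt2 (−0.08, adjusted p = 0.0912), Guk1 (−0.12, adjusted p = 0.467), Atp6v1h (0.19, adjusted p = 0.0972), Rpl38 (−0.26, adjusted p = 0.0551), Sfxn1, Slc6a9, Asah2, Erbb2, Pkp3 and Rrs1 were not called. With that correction 2 pyrimidine genes were higher and 4 lower, as were 2 and 8 sphingolipid, 5 and 4 transporter, 5 and 3 NF-kB, 9 and 2 epithelial, 4 and 2 heat shock and 3 and 4 serine and one-carbon genes.

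The same withdrawal in KO cells grown alone gave 8534 called genes (70.8%), with 4372 higher (36.2%) and 4162 lower (34.5%), and a median absolute log2 change of 0.495 against 0.188 in coculture. The 2 effects rest on different libraries. Of the 3607 genes called in coculture 2912 were also called in KO cells alone, which is 80.7% of the coculture calls and 34.1% of the calls in KO cells alone. Of these 2215 had the same sign, 1142 higher and 1073 lower in both, and 1902 of the 2215 changed less in coculture. In 697 the signs were opposite, 410 of them higher in coculture and lower alone. The difference between the effects, tested as an interaction, passed for 6962 genes (57.7%), with 3365 more positive (27.9%) and 3597 more negative (29.8%) in coculture.

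**Figure D4:**
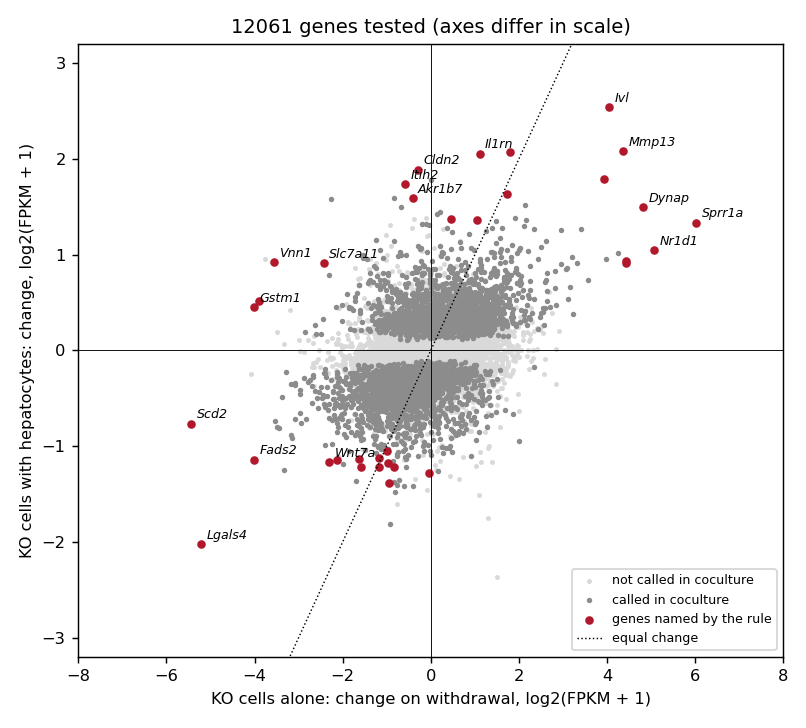
Log2 change on withdrawal of each of the 12061 tested genes in KO cells with hepatocytes (vertical axis) against KO cells alone (horizontal axis, wider range), in log2(FPKM + 1). Dark grey points are genes called in coculture, red points the genes named by rule, some with labels, and the dotted line marks equal change. Sprr1a and Dynap lie far to the right at modest height, while Slc7a11, Vnn1 and Gstm1 lie above 0 and to the left, and Cldn2, Itih2 and Akr1b7 above 0 near the vertical axis.

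Some genes rose in coculture and fell in KO cells alone. Slc7a11 rose by 0.91 in coculture and changed by −2.43 alone, where its FPKM was 4.66, 4.12 and 3.85 in deprived and 31.8, 24.5 and 25.3 in supplied libraries (interaction 3.34 ± 0.13, limma adjusted p = 7.03e-14). Vnn1, a pantetheinase, was at 5.53, 7.28 and 7.19 against 2.86, 3.09 and 3.16 in coculture (0.92) and 0.801, 0.645 and 0.830 against 23.99, 17.4 and 18.6 alone (−3.57). The glutathione transferase gene Gstm1 (0.45 and −4.01) and the organic anion transporter gene Slco4a1 (0.52 and −3.91) had the same pair of signs. Cldn2 and Itih2 were also of this kind, with −0.29 (adjusted p = 0.00983) and −0.59 (adjusted p = 6.9e-05) in KO cells alone. Scd2 fell in both settings but by far less in coculture: alone it was at 12.9, 13.7 and 13.8 against 549, 674 and 669 (−5.44), and the interaction was 4.68 ± 0.09 (adjusted p = 1.2e-17). Lgals4 likewise fell by 2.02 in coculture and by 5.22 alone.

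The named genes with the largest negative interactions rose in both settings, and for such genes this selection fixes a smaller rise in coculture. Sprr1a, a cornified envelope protein gene, was at 221, 220.3 and 215 in deprived and 89.6, 85.03 and 83.97 in supplied cocultures (1.33) and at 834, 906 and 906 and 13.4, 12.2 and 11.9 in KO cells alone (6.03), with an interaction of −4.69 ± 0.08 (limma adjusted p = 1.57e-18). Supplied cocultures were thus already above supplied KO cells alone, and deprived cocultures below deprived ones. Nr1d1 (1.04 and 5.08), Ereg (0.91 and 4.43), Rrm2 (0.93 and 4.42) and Dynap (1.5 and 4.83) followed, each with an interaction below −3.3. Sprr1a and Dynap were apart between groups in all 12 KO libraries. Reads of Sprr1a may be shared with other small proline-rich genes, and Ereg overlaps the antisense gene Gm19610.

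Over all genes, 36.2% rose and 34.5% fell in KO cells alone, against 15.5% and 14.4% in coculture. Interactions were called positive for 27.9% of all genes and negative for 29.8%. By list, 38 of 42 S phase genes rose in KO cells alone (median 1.08) against 14 in coculture (median 0.12), and the interaction was called for 38, all toward a more negative change in coculture. Mitotic genes rose in both, 32 of 33 alone (median 1.47) and 31 in coculture (0.74), with 22 interactions called, all negative. Cholesterol genes fell in both, 25 of 25 alone (median −1.64) and 18 in coculture (−0.50), with 24 interactions called, all positive. Glycolysis genes had 15 falls of 20 alone and 12 in coculture (medians −1.15 and −0.27), with 12 interactions called positive and 2 negative. ATF4 genes had 12 rises and 9 falls of 25 alone, the falls near the share of all genes. Genes of the mitochondrial genome rose in coculture (6 of 13) and had 3 rises and 2 falls alone, both below the shares of all genes, with 6 interactions called positive. Deprived KO coculture replicates 2 and 3 stood apart in the measures given above. Supplied replicate 1 of the KO cells alone stood apart as well, with a Gm23935 FPKM of 3158 against 16840 and 20043 in replicates 2 and 3, and a mitochondrial share of 2.92% against 2.11 and 2.33%. Without it the KO cells alone had 8640 calls (4453 higher, 4187 lower), 32 mitotic and 40 S phase rises and 25 cholesterol falls, and the interaction had 7208 calls.

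**Figure D5:**
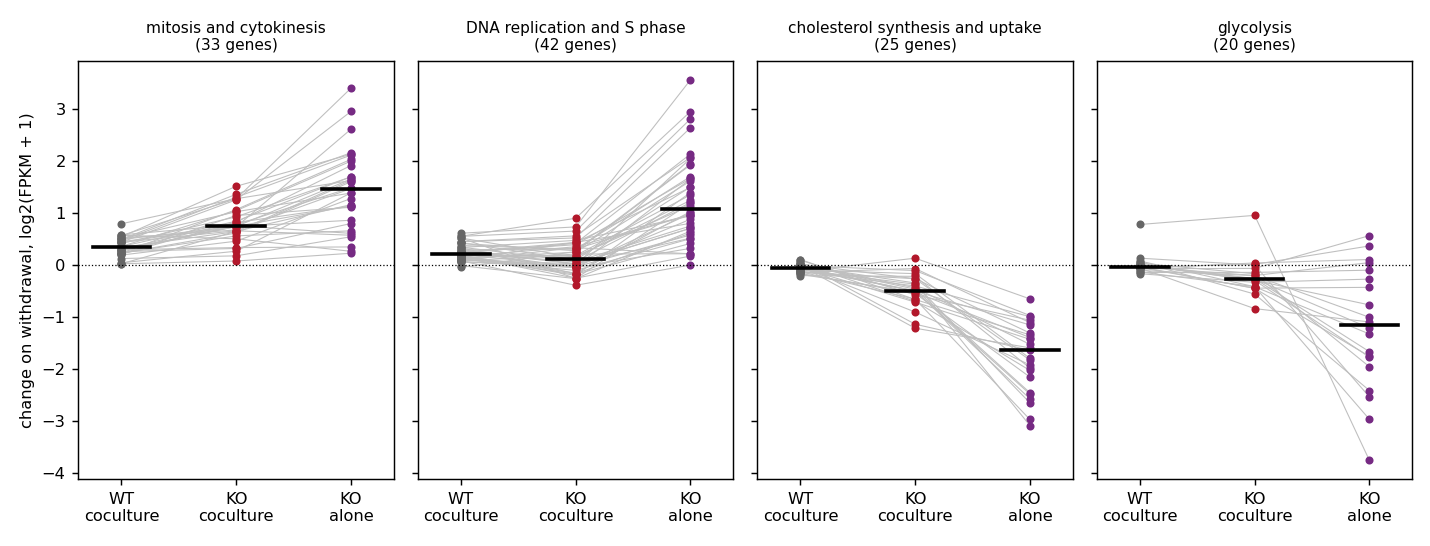
Log2 change on withdrawal, in log2(FPKM + 1), of each tested member of 4 lists in WT coculture, KO coculture and KO cells alone, with grey lines joining a gene and black bars at the medians. Medians of mitotic genes are 0.34, 0.74 and 1.47, those of S phase genes 0.22, 0.12 and 1.08, and those of cholesterol genes −0.05, −0.50 and −1.64. This scale understates changes of genes at low FPKM, such as the mitotic ones, whose WT median was 0.66 by voom.

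Withdrawal in WT cocultures, whose cells keep an unedited Phgdh by label, called 89 genes (0.738%), 53 higher (0.439%) and 36 lower (0.298%), at a median absolute log2 change of 0.0817. The interaction of withdrawal with genotype in coculture passed for 1742 genes (14.4%), 972 more positive (8.06%) and 770 more negative (6.38%) in KO. That count depended on single libraries: it was 3080 without deprived KO replicate 1, 1076 without deprived KO replicate 2 and 1104 without replicate 1 of the deprived WT cocultures. The count of more negative genes was 1510, 425 and 435 in the same fits, 496 without supplied KO replicate 1 and 474 without supplied WT replicate 2. The count of more positive genes was 1570 without deprived KO replicate 1.

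By the naming rule, which takes genes also called in KO coculture, the 5 most positive differences from WT were Ivl, Klra4, Il1rn, Mmp13 and Cldn2. All were among the leading rises, which this selection favours. Ivl was at 2.48, 1.85 and 2.95 in deprived and 1.66, 1.80 and 1.71 in supplied WT cocultures (0.32, adjusted p = 0.288), and its interaction was 2.22 ± 0.16 (limma adjusted p = 4.14e-08). Cldn2 was at 2.34, 1.96 and 2.19 and 1.61, 1.79 and 1.84 in WT (0.20), with an interaction of 1.69 ± 0.13 (adjusted p = 1.84e-07). The interactions of Il1rn (1.82 ± 0.11), Klra4 (1.87 ± 0.24) and Mmp13 (1.81 ± 0.17) also kept their call in every alternative. On the negative side stood Lgals4, at 52.3, 48.9 and 49.3 and 41.03, 44.9 and 45.2 in WT (interaction −2.22 ± 0.20, adjusted p = 1.23e-06), Wnt7a (−1.28 ± 0.10, adjusted p = 1.79e-07), Tmem107 (−1.34), Rnaseh2c (−1.57 ± 0.49) and Epop (−1.34 ± 0.42), a gene tied to Polycomb complexes. Wnt7a differed in level between genotypes, at 78.95, 74.7 and 75.3 in deprived and 72, 67.03 and 72.6 in supplied WT cocultures. Its means in deprived and supplied KO cocultures were 2.90 and 7.74. Without deprived KO replicate 2 Rnaseh2c (adjusted p = 0.111) and Epop (0.107) lost the call, and both lost it in 14 of 23 alternatives.

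Some cell cycle genes were also called in WT cocultures. Over all genes 0.439% were called higher and 0.298% lower there. The genotype interaction was called more positive in KO for 8.06% of all genes and more negative for 6.38%. Of 33 mitotic genes 9 rose in WT and 24 did not pass (median 0.34), 14 interactions were called, all toward a larger rise in KO, and Ccnb1 was at 1.46, 1.19 and 1.66 in deprived and 0.675, 0.809 and 0.533 in supplied WT libraries (0.54, limma adjusted p = 0.0176; interaction 0.97 ± 0.15, adjusted p = 0.00038). At such low levels the log2(FPKM + 1) scale understates the changes in WT too. By voom on the recovered reads the WT medians were 0.66 for mitotic and 0.30 for S phase genes. Interactions of these lists were counted on the log2(FPKM + 1) scale only. Of 42 S phase genes 8 rose in WT and 34 did not pass (median 0.22), and 0 interactions were called toward a more positive and 5 toward a more negative change in KO. Cdc6 (0.55 in WT), Mcm5 (0.61) and Mcm3 (0.55) were called in WT, and the difference between genotypes was not called for any of the 3 (interaction adjusted p = 0.0818, 0.506 and 0.49). Cholesterol genes had 0 calls of 25 in WT by limma, 2 at an unadjusted p under 0.05 and 0 by voom (median −0.05), and 15 interactions called toward a larger fall in KO. Pmvk, for one, was at 14.5, 13.5 and 16.4 in deprived and 14.4, 14.9 and 15.3 in supplied WT cocultures (−0.01), and its interaction was −1.20 ± 0.16 (adjusted p = 7.24e-05).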

How the data were processed

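RNA sequencing of 24 libraries (8 groups of 3) was used, of which 6 hold the comparison described. The submitters' processing notes name HISAT2 as a tool and GRCm38 (mm10) as the build. The version of HISAT2, the counter, the annotation and any use of strand were not given in the sources used here. Values deposited by the authors are FPKM per gene and library, with gene lengths and positions per the file headers. FPKM times gene length, divided by a step fitted for each library, gave whole reads within 0.01 read for 100% of the values checked. That check left out the genes with the most reads. Totals were 15740081 to 23479425 reads per library. The scaling total behind the FPKM was 0.969 to 1.068 times the total of the library itself. FPKM is not a count, so log2(FPKM + 1) was tested with limma 3.58.1 in R 4.3.3 (two-sided moderated test, trend on the mean) in a single fit with 8 group means, which left 16 residual degrees of freedom. Benjamini-Hochberg adjustment ran over 12061 genes, with calls at an adjusted p under 0.05. The script was tested on simulated data. The simulated libraries shared a single spread and had no gene-length trend, so this test did not cover the uneven deprived replicates. Alternatives covered pseudocounts of 0.1 and 5, filters, scaling, voom on the recovered reads, single groups, a replicate block and each library left out. The correction for gene length and GC content and the joint omission of deprived replicates 2 and 3 were chosen after seeing the data. The recovered reads gave 3624 calls with voom (1917 higher, 1707 lower).

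The members and the 30 pathway and 7 marker lists (846 symbols, all found) were chosen with earlier results of these data known, so counts over lists carry no test of their own. Named genes are Phgdh, the 12 largest called rises and falls among protein-coding genes without overlap between groups whose higher group averaged an FPKM of 5 or more (provisional clone names left out), up to 4 called members per list with the largest change, 7 fixed genes of serine metabolism and ATF4, and the 5 largest interactions in each direction among genes also called in KO coculture. A few genes that this rule names are not reported here. Other genes were named as markers or after their values were seen.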

Additional observations from a re-analysis of the deposited data

Results flagged for a closer look

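The effect of withdrawal in KO coculture differed from that in another setting for 20 named genes, by a test of the difference itself (limma interaction, on the log2(FPKM + 1) scale). Against KO cells alone, the change in coculture was more positive for Scd2 (4.68), Vnn1 (4.48), Gstm1 (4.46), Slco4a1 (4.42) and Slc7a11 (3.34), and more negative for Sprr1a (−4.69), Nr1d1 (−4.03), Ereg (−3.52), Rrm2 (−3.49) and Dynap (−3.33). Against WT coculture it was more positive for Ivl (2.22), Klra4 (1.87), Il1rn (1.82), Mmp13 (1.81) and Cldn2 (1.69), and more negative for Lgals4 (−2.22), Rnaseh2c (−1.57), Tmem107 (−1.34), Epop (−1.34) and Wnt7a (−1.28). Of the 20 differences 17 kept their call in every alternative setting run, and Rnaseh2c, Tmem107 and Epop did not.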

How the results depend on the processing

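Of 145 named genes called in KO coculture, 74 kept their call in every alternative setting run, 71 lost it in at least 1 and 0 changed sign. When the fit held just the libraries compared, the calls numbered 1820 (1027 higher, 793 lower), with 8 hypoxia and 13 ribosomal protein genes lower. With deprived replicates 2 and 3 left out together, so that the lone deprived library was assumed to vary like the other groups, they numbered 970 (593 higher, 377 lower), the genotype interaction 465 (306 and 159), S phase rises 6, and falls 11 for cholesterol, 4 for glycolysis and 8 for ribosomal protein genes. Leaving out single libraries gave 2152 to 4619 calls (1221 to 2310 higher, 931 to 2309 lower), 1076 to 3080 for the genotype interaction (651 to 1570 and 425 to 1510), and 12 to 27 ribosomal protein falls. The lowest total of calls in KO coculture was without deprived replicate 2 and the highest without deprived replicate 1. With no filter on low values the genotype interaction had 500 more negative genes, with an FPKM minimum of 5 the mitosis list had 12 rises, and with quantile normalization ribosomal protein falls numbered 10. The cause of these differences was not tested, and several of these fits also held fewer genes or libraries. The coculture interaction kept its counts within 1.5 times of the reported ones in every setting run. Replicate numbers did not pair the KO coculture libraries (correlations of deviations 0.03, 0.016 and 0.014 for numbers 1, 2 and 3), and only number 1 correlated best with its own number. In KO cells alone these correlations were 0.401, 0.276 and 0.114. There, numbers 1 and 2 correlated best with their own number, and number 3 with number 2. Whether the numbers mark a true pairing was not tested. In WT coculture the correlations were −0.039, 0.052 and −0.062. The replicate block gave 3342 calls (1744 higher, 1598 lower) in KO coculture, 8021 in KO cells alone fitted by themselves (8463 with all groups) and 6820 for the coculture interaction, each within 1.5 times of the reported count. Depth limits genes with few reads, and 3 libraries a group limit all comparisons.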
